A study of Mus musculus with 16 samples.

Results

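Cortex of 5xFAD-Dp16 mice was compared with cortex of 5xFAD mice, which asks how mice with the Dp16 duplication differ from mice without it where both carry the amyloid transgenes. The comparison took every library of both genotypes, 8 of the 16 libraries in the series, each made from polyadenylated RNA of cortex at the age of 5 months. All 8 libraries came from mice with 5xFAD, a set of human transgenes under the neuronal Thy1 promoter. The transgenes, APP among them, carry familial Alzheimer mutations. The 4 libraries labelled 5xFAD-Dp16 came from mice that also carried Dp16. Dp16 is a duplication of the part of mouse chromosome 16 that matches much of human chromosome 21. The genes of that part are present in 3 copies in place of 2. The other 8 libraries were Dp16 and wild-type C57BL/6J cortex at the same age, 4 of each. The 4 5xFAD-Dp16 libraries were from males, and each of the other genotypes had 2 libraries from males and 2 from females. In 5xFAD, replicates 1 and 2 were from females and replicates 3 and 4 from males. The labels number the samples within a genotype and do not say whether each came from a separate animal, so the p-values measure the spread between these samples.

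People with trisomy 21 carry an extra copy of APP and nearly always develop amyloid plaques. An extra copy usually raises the RNA of a gene in proportion to its dosage, although feedback can blunt or exceed this. In 5xFAD cortex, microglia gather at plaques and switch on a program that needs the receptor TREM2 and its adaptor TYROBP, with lysosomal enzymes, Fc receptors and chemokines among its genes. The duplicated segment also holds receptors for type I and type II interferons, which act on microglia and many other cells.

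The 8 libraries held 15000753 to 20061944 counted reads. Thy1, whose promoter drives the transgenes, stood at 1647 CPM (counts scaled by library size) ± 138 in 5xFAD-Dp16 and 1640 ± 200 in 5xFAD (SD, n = 4), and wild-type cortex had 886 ± 41.5; counts per gene do not separate mouse Thy1 from Thy1 sequence in the transgenes. Xist and the Y-linked genes Ddx3y, Uty and Kdm5d matched the labelled sex of each sample. Eif2s3y, a further Y-linked label check, stood lower in 5xFAD-Dp16 males than in 5xFAD males, with values given under other observations. The labels give a strain for wild-type alone. The nonagouti gene (symbol a, chromosome 2), a coat colour gene named after its values were seen, had 49, 38, 51 and 51 reads in 5xFAD-Dp16, 0, 0, 0 and 5 in 5xFAD, and 2.03 to 4.96 CPM in Dp16 against 0 in wild-type. The duplication and any strain background that came with it cannot be told apart in this comparison. 5xFAD replicate 3 stood apart: its median correlation with the other libraries was 0.938, against 0.963 to 0.972 for the other 7. The libraries also differed in how a gene's deviation from its mean followed gene length. Spearman's rho of that deviation and length across genes was 0.451, 0.102, 0.357 and 0.204 in 5xFAD-Dp16 replicates 1 to 4, and 0.227, 0.079, -0.462 and -0.239 in 5xFAD replicates 1 to 4. The group means, 0.279 ± 0.156 and -0.0988 ± 0.311, had a two-sided exact permutation p of 0.114. The share of mitochondrial reads was 8.75% ± 0.605 and 9.62% ± 1.40 (exact permutation p = 0.314).

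Of 17019 genes tested, 0 passed edgeR's quasi-likelihood test at a Benjamini-Hochberg adjusted p under 0.05, which is 0% in either direction. The smallest adjusted p was 0.0517, shared by 4 genes: Ifngr2, Dyrk1a and Ncam2 of the duplicated segment, with higher levels in 5xFAD-Dp16, and the Fc receptor gene Fcgr3, with lower ones. Of the 22 genes with an adjusted p under 0.1, 10 lay in the segment. Without adjustment, 2006 genes were higher (11.8%) and 2043 lower (12%) at p under 0.05. DESeq2, run as an alternative, called 432 higher (3.79% of the 11408 genes it gave an adjusted p) and 308 lower (2.7%). Without 5xFAD replicate 3 the unadjusted counts were 673 higher (3.87%) and 480 lower (2.76%), and edgeR again called 0. In what follows a change is a log2 fold change of 5xFAD-Dp16 over 5xFAD from the edgeR model, with its standard error (SE), and adjusted p is from the same test unless DESeq2 is named. Values per library are CPM in the order of replicates 1 to 4.

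The segment genes stood mostly higher in 5xFAD-Dp16. They had a median change of 0.51, or 1.43-fold, where 3 copies against 2 would give 1.5-fold, and 89 of the 105 tested members were above 0, against 49.8% of all tested genes. The segment was taken from Lipi to Zbtb21, 22.4 Mb. Of the 384 genes in it, 279 had too few reads to test, 206 of them with 0 reads in the 8 libraries. At an unadjusted p under 0.05, 42 members (40.0%) were higher and 1 lower, against 11.8% and 12% of all tested genes. The 4 libraries of 5xFAD-Dp16 all lay above the 4 of 5xFAD for 40 members (38.1%), against 5.59% of all tested genes, and all below for 1, against 5.87%. DESeq2 called 28 higher, 39.4% of the 71 members with an adjusted p, and 1 lower, against 3.79% and 2.7% of all. Elsewhere on chromosome 16 the median change was -0.04 over 416 tested genes.

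**Figure D1:**
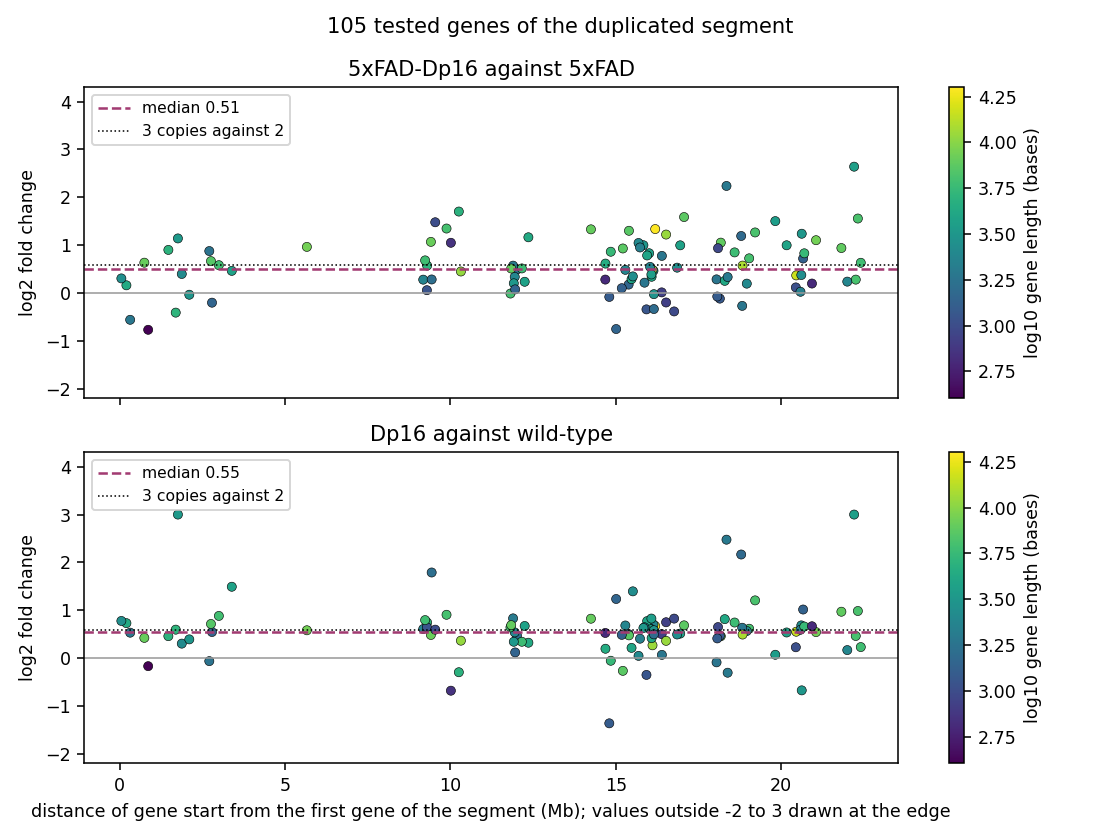
Change of each tested segment gene (y axis, log2 fold change) against the distance of its start from the first gene of the segment (x axis, Mb), with 5xFAD-Dp16 against 5xFAD above and Dp16 against wild-type below; colour gives gene length, the dashed line the median and the dotted line the value for 3 copies against 2. Medians are 0.51 and 0.55, and in the upper panel short genes (dark) sit lower than long ones.

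The 4 interferon and interleukin receptor genes were all above 0, with a median of 0.81. Ifngr2, the signalling chain of the interferon gamma receptor (ENSMUSG00000022965.8, chromosome 16, 91547072 to 91565623, GRCm38), stood at 96.3, 102, 90.5 and 93.5 CPM in 5xFAD-Dp16 and at 50.5, 60.7, 55.0 and 49.97 in 5xFAD. The groups did not overlap, and the change was 0.83 (SE 0.13, 1.78-fold, adjusted p = 0.0517; DESeq2 adjusted p = 2.52e-06). Ifnar2, a chain of the type I interferon receptor, stood at 27.2, 24.4, 19.2 and 23.1 against 13.4, 11.9, 13.7 and 11.6 CPM, a change of 1.00 (SE 0.18, adjusted p = 0.0795). Its partner chain Ifnar1 stood at 49.8 ± 5.12 against 30.7 ± 3.8 CPM (SD, n = 4), a change of 0.78 (adjusted p = 0.0811). Il10rb, a chain shared by receptors of interleukin 10 and interferon lambda, gave 0.22 with overlapping libraries (adjusted p = 0.615). The 44 tested interferon-stimulated genes off chromosome 16 had a median change of -0.09, with 17 above 0. At an unadjusted p under 0.05, 1 of them was higher and 3 lower, where 11.8% and 12% of all tested genes were. DESeq2 called 0 of the 20 it gave an adjusted p, and called 3.79% of all genes higher and 2.7% lower. The median was -0.20 with 12 above 0 without 5xFAD replicate 3, ran from -0.197 to -0.013 when single libraries were left out, and was 0.06 in males, so its sign changed with the setting. The segment's own interferon-induced gene Mx2 was near 1.4 CPM in both groups, and Mx1 had too few reads to test.

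App, the mouse amyloid precursor gene (ENSMUSG00000022892.11, chromosome 16, 84949685 to 85173766), stood at 2073, 1626, 1722 and 1572 CPM in 5xFAD-Dp16 and at 918, 892, 604 and 933 in 5xFAD. Every 5xFAD-Dp16 library was above every 5xFAD library, and 5xFAD replicate 3 was the lowest. The change was 1.07 (SE 0.20, 2.1-fold, adjusted p = 0.0795), or 0.88 without that replicate. Counts per gene do not separate mouse App reads from any human APP reads that aligned there. Bace2, a protease related to the beta-secretase, stood at 6.45 ± 0.715 against 3.26 ± 1.33 CPM, and the extracellular protease Adamts1 at 7.12 ± 2.60 against 2.40 ± 1.22 CPM (adjusted p = 0.155 for each). In a list of 17 App relatives, secretases and amyloid-degrading enzymes, which counts App itself, 13 were above 0 with a median of 0.39, or 0.29 without 5xFAD replicate 3. The App relative Aplp1 stood at 832 ± 144 against 546 ± 154 CPM, the gamma-secretase subunit Ncstn at 46.0 ± 8.83 against 30.6 ± 8.58, and the amyloid-degrading protease Ide at 35.2 ± 8.63 against 22.5 ± 5.63. None of these 3 passed edgeR's test, with an adjusted p of 0.155 for each.

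Of the 9 kinases and signalling genes of the segment, 8 were above 0, with a median of 0.72. Dyrk1a, a kinase that phosphorylates tau and NFAT proteins (ENSMUSG00000022897.15, chromosome 16, 94570010 to 94695517), stood at 124, 107, 119 and 114 CPM in 5xFAD-Dp16 and at 69.7, 65.9, 64.1 and 76.9 in 5xFAD. The groups were well apart, with a change of 0.72 (SE 0.12, 1.65-fold, adjusted p = 0.0517; DESeq2 adjusted p = 8.57e-07). Rcan1, an inhibitor of the phosphatase calcineurin, stood at 93.6, 87.4, 84.4 and 93.1 against 63.8, 71.3, 54.6 and 60.3 CPM, a change of 0.53 (SE 0.12, adjusted p = 0.155; DESeq2 adjusted p = 0.00159). Tiam1, an exchange factor for the GTPase Rac, stood at 48.1 ± 14.9 against 20.3 ± 4.41 CPM (adjusted p = 0.155). Samsn1, an adaptor protein of blood and immune cells, was the exception, with 3.92, 5.48, 5.43 and 5.18 CPM against 8.57, 8.86, 7.52 and 6.80, all lower with the extra copy (change -0.56, adjusted p = 0.269).

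All 7 tested adhesion genes were above 0, with a median of 0.67. They included Ncam2, a neural cell adhesion molecule (ENSMUSG00000022762.18, chromosome 16, 81200697 to 81626828), at 119, 108, 123 and 119 CPM in 5xFAD-Dp16 and 69.8, 66.0, 47.6 and 62.3 in 5xFAD. The change was 0.96 (SE 0.16, 1.95-fold, adjusted p = 0.0517). Jam2, a junctional adhesion molecule, stood at 92.9 ± 6.97 against 60.1 ± 8.04 CPM (adjusted p = 0.0811) and Dscam, a neuronal recognition molecule, at 29.9 ± 5.00 against 13.3 ± 2.45 CPM (adjusted p = 0.155).

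Of 7 endocytosis and membrane traffic genes, 6 were above 0, with a median of 0.545. Synj1, the lipid phosphatase that uncoats synaptic vesicles, stood at 330, 200.1, 273 and 249 CPM against 142, 138, 64.9 and 112. All 4 5xFAD-Dp16 libraries were higher, and replicate 3 of 5xFAD was the lowest of the 8 (change 1.3, SE 0.27, adjusted p = 0.122). Itsn1, a scaffold of clathrin-coated pits, ranged from 65.9 to 114 CPM against 19.4 to 59.8 (change 1.34, adjusted p = 0.155). Tmem50b, a membrane protein of the secretory route, ranged from 135 to 167 against 94.9 to 108 CPM, a change of 0.55 (adjusted p = 0.126). The 4 tested channel and transporter genes had a median of 1.19. The potassium channel Kcnj6 stood at 10.7 ± 2.52 against 4.78 ± 1.86 CPM and the kainate receptor subunit Grik1 at 11.7 ± 2.97 against 5.78 ± 2.1, with adjusted p of 0.155 for each and no overlap.

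Of 20 tested transcription and chromatin genes, 18 were above 0, with a median of 0.54. Ets2, an ETS-family factor, stood at 48.6 ± 9.63 against 25.5 ± 6.09 CPM without overlap (change 1.00, adjusted p = 0.155). Olig1 and Olig2, factors of the oligodendrocyte lineage, stood at 102 ± 21.1 against 60.5 ± 20.8 and at 29.8 ± 10.7 against 18.4 ± 7.95 CPM, with overlapping libraries. Morc3, a nuclear matrix ATPase, stood at 34.3, 36.9, 35.6 and 34.5 against 26.9, 26.4, 30.9 and 30.8 CPM, a change of 0.25 with no overlap (adjusted p = 0.249). Hmgn1, a nucleosome-binding protein named here after its values were seen, gave 0.03 (SE 0.17), and the haematopoietic factor Runx1, at 1.06 ± 0.391 against 0.604 ± 0.692 CPM, gave 1.59 with an SE of 1.33 (adjusted p = 0.47).

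The 7 protein folding and ubiquitin genes and 7 of the 8 RNA processing genes were above 0, with medians of 0.34 and 0.50, and 6 of 9 metabolic and mitochondrial genes, with a median of 0.06. Ttc3, a ubiquitin ligase of the kinase AKT, stood at 1450, 1378, 1425 and 1461 CPM against 971, 907, 923 and 1026, a change of 0.57 (SE 0.11, 1.49-fold, adjusted p = 0.0811). Usp25, a deubiquitinase, stood at 37.7 ± 5.77 against 19.5 ± 1.54 CPM (adjusted p = 0.155), while the histone deubiquitinase Usp16 gave 0.20 (adjusted p = 0.5). B3galt5, a glycosyltransferase, and the splicing cofactor Son had changes of 0.83 (adjusted p = 0.0795) and 0.48 (adjusted p = 0.155), both without overlap. Sod1, the copper-zinc superoxide dismutase, stood at 581, 673, 633 and 637 CPM against 423, 468, 614 and 513, where 5xFAD replicate 3 overlaps the other group (change 0.28, SE 0.15, adjusted p = 0.252). Pcp4, a small calmodulin-binding protein, ranged from 586 to 1046 against 600 to 1013 CPM. Gm9843, a predicted gene that DESeq2 called lower (adjusted p = 0.0475) and that was named after its values were seen, stood at 22.5 ± 4.98 against 36.5 ± 10.2 CPM.

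**Figure D2:**
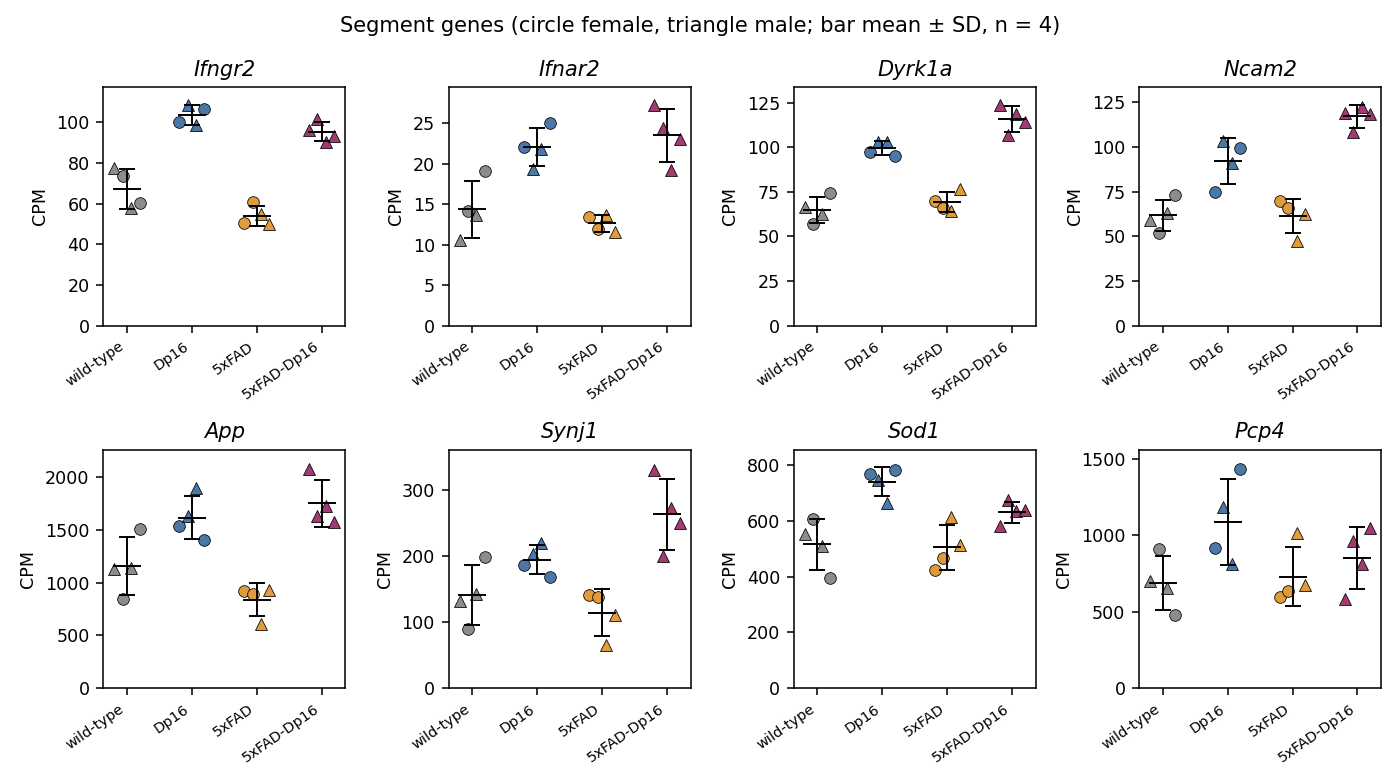
CPM of 8 segment genes in each library of the 4 genotypes (x axis), circles for females and triangles for males, with mean and SD (n = 4). Ifngr2, Ifnar2, Dyrk1a, Ncam2, App and Synj1 show no overlap between 5xFAD and 5xFAD-Dp16, and Sod1 and Pcp4 overlap.

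The size of the change followed gene length within the segment. With all tested genes split by length into 5 classes of nearly equal size, segment members had medians of 0.07, 0.34, 0.39, 0.59 and 0.85 from the shortest class, with 22 members, to the longest, with 31. In Dp16 against wild-type, which uses none of these 8 libraries but comes from the same model, the classes gave 0.51, 0.54, 0.58, 0.56 and 0.58. All tested genes showed the trend as well, with medians from -0.41 in genes of up to 1567 bases to 0.32 in genes of 5274 bases and more, and Spearman's rho of change and length across genes was 0.45. It was 0.32 without 5xFAD replicate 3. With the length trend removed, the segment medians were 0.40, 0.53, 0.40, 0.41 and 0.58. In that fit 4 genes passed, 0.0235% of those tested, each a higher segment gene: Sod1 (change 0.75, adjusted p = 0.000636), App (0.73, adjusted p = 0.000636), Synj1 (0.99, adjusted p = 0.0278) and Tmem50b (0.62, adjusted p = 0.0325). Under this removal 9 of the longer genes named above moved down by over 1.5 times: Ttc3 from 0.57 to 0.17, Son from 0.48 to 0.10, Morc3 from 0.25 to 0.12, Dyrk1a from 0.72 to 0.44, Jam2 from 0.68 to 0.43, Ncam2 from 0.96 to 0.63, Dscam from 1.10 to 0.72, Itsn1 from 1.34 to 0.87 and Bace2 from 0.94 to 0.62. Of these, Ttc3 had an adjusted p of 0.58 and Son of 0.666. In males with the same removal, a setting chosen after seeing the data, Ttc3 gave 0.01 (adjusted p = 0.968), Son 0.07 (adjusted p = 0.738) and Dyrk1a 0.34 (adjusted p = 0.0596). Shorter genes such as Pcp4 and Il10rb moved up, Pcp4 from 0.20 to 0.67 and Il10rb from 0.22 to 0.37. Fragment length, RNA integrity and other causes of such a trend were not tested.

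**Figure D3:**
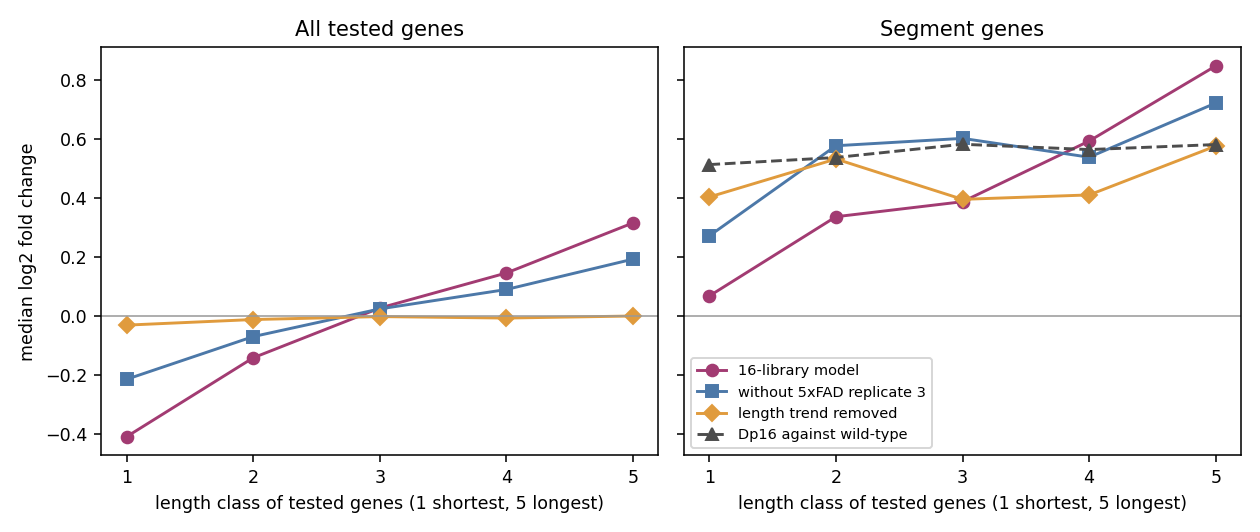
Median log2 fold change (y axis) by length class of tested genes from shortest to longest (x axis), for all tested genes at left and segment genes at right, in the 16-library model, without 5xFAD replicate 3 and with the length trend removed; the dashed line is Dp16 against wild-type. Over segment genes the 16-library model runs from 0.07 to 0.85 and the dashed line stays between 0.51 and 0.58.

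Outside the segment, Fcgr3 had the smallest adjusted p, and Tyrobp, Trem2, Cd9, Ccl6 and Cyba, which microglia express, were also under 0.1. The promoters below belong to Fcgr3, of the general myeloid list, and to 4 plaque-associated microglial genes, all of which stood lower in 5xFAD-Dp16 and are shown because the ETS factor PU.1, which binds a purine-rich PU box, is a known regulator of myeloid genes. Each is the 150 bases before the gene's start (RefSeq, GRCm38.p6), on the strand of the gene, with capitals for the letters GAGGAA or, for the other strand, TTCCTC: Fcgr3 at chr1:171059404-171059553 on the minus strand, Trem2 at chr17:48346251-48346400 on the plus strand, Clec7a at chr6:129472780-129472929 on the minus strand, Cst7 at chr2:150570265-150570414 on the plus strand and Ccl6 at chr11:83593088-83593237 on the minus strand.
Fcgr3: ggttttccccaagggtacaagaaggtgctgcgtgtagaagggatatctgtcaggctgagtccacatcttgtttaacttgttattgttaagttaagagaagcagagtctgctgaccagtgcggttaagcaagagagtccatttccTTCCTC
Trem2: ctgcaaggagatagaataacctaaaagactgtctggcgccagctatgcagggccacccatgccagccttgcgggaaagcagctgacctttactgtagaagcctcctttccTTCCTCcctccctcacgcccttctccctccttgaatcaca
Clec7a: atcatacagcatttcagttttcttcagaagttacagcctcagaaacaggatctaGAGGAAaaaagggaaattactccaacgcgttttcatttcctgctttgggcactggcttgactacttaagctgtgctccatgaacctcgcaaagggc
Cst7: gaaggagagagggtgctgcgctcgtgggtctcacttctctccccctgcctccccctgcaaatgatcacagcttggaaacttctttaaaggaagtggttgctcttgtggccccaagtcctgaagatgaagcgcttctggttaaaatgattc
Ccl6: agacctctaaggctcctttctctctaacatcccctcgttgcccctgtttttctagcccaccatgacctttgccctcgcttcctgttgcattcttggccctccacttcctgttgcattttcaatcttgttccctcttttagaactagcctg
Fcgr3, Trem2 and Clec7a each hold these letters once, 6, 40 and 96 bases before the start, and Cst7 and Ccl6 do not in this window. Of the 64 members of the plaque-associated and general myeloid lists, 49 were matched to a promoter, and 23 of these (46.9%) hold the letters in the 250 bases before the start, against 23.1% of 27025 promoters. That share covers members in both directions. Of the tested members, 12 of 32 plaque-associated and 11 of 31 general myeloid genes were above 0. A match of letters is a description and shows no binding, and a lack of these letters shows no absence of binding. The RefSeq start of Fcgr3 lies within the longer Gencode gene whose coordinates follow.

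Fcgr3, a low-affinity Fc receptor for immunoglobulin G (ENSMUSG00000059498.13, chromosome 1, 171051174 to 171064935), stood at 39.4, 48.6, 46.6 and 49.2 CPM in 5xFAD-Dp16 and at 106, 115, 104 and 71.5 in 5xFAD. The 5xFAD-Dp16 libraries were all lower, wild-type stood at 44.1 ± 8.93 CPM (SD, n = 4), and the change was -1.08 (SE 0.18, adjusted p = 0.0517; DESeq2 adjusted p = 2.88e-05). Tyrobp, the adaptor that signals for TREM2, stood at 48.1, 46.8, 50.5 and 50.6 against 137, 148, 137 and 77.3 CPM, a change of -1.27 (SE 0.23, adjusted p = 0.0795). Trem2, the lipid-sensing receptor of plaque-associated microglia, stood at 36.3, 43.0, 36.0 and 35.8 against 89.9, 92.7, 73.7 and 55.5 CPM, with 25.6 ± 5.19 in wild-type. Its groups did not overlap, 5xFAD females were above 5xFAD males, and the change was -0.95 (SE 0.19, adjusted p = 0.0811). Ccl6, a chemokine, stood at 11.9, 13.5, 13.6 and 8.26 against 44.9, 41.4, 33.1 and 23.8 CPM (change -1.59, SE 0.31, adjusted p = 0.0811). Cd9, a tetraspanin, stood at 136 ± 22.5 against 261 ± 42.7 CPM (change -0.98, adjusted p = 0.0811).

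Clec7a, the beta-glucan receptor Dectin-1, and Cst7, an inhibitor of cathepsins, were both named after their values were seen. Clec7a stood at 12.1, 12.4, 13.7 and 9.91 CPM against 47.4, 44.5, 32.3 and 21.0, with 0.575 ± 0.341 in wild-type (change -1.32, SE 0.29, adjusted p = 0.155; DESeq2 adjusted p = 0.000811). Cst7 stood at 14.96, 15.1, 13 and 7.87 against 57, 53.2, 30.8 and 21.0 CPM (change -1.22, SE 0.53, adjusted p = 0.184), with 0.412 ± 0.631 in wild-type. Every 5xFAD-Dp16 library was below every 5xFAD library and above wild-type for both genes. Not all plaque-associated genes were lower: Cd68, a lysosomal membrane protein, stood at 20.5, 17.7, 20.1 and 15.8 against 40.8, 46.1, 15.1 and 14.2 CPM, so that 5xFAD females were above 5xFAD-Dp16 and 5xFAD males were not. Apoe, the lipid carrier, stood at 2994 ± 199 against 3112 ± 462 CPM, and Timp2, an inhibitor of metalloproteinases, was called higher by DESeq2 (change 0.56, DESeq2 adjusted p = 0.0394); these 3 were also named after their values were seen.

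**Figure D4:**
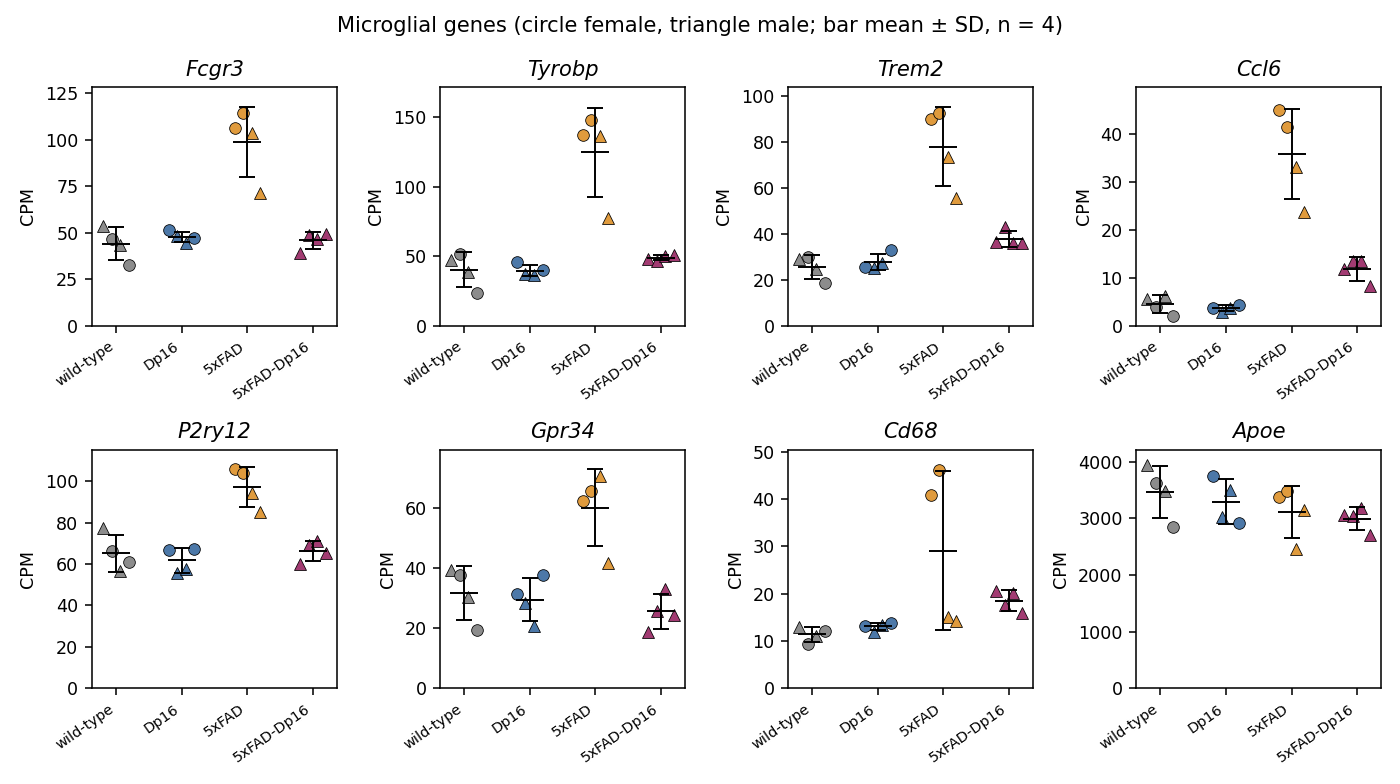
CPM of 8 microglial genes in each library of the 4 genotypes (x axis), circles for females and triangles for males, with mean and SD (n = 4). Fcgr3, Tyrobp, Trem2, Ccl6, P2ry12 and Gpr34 are lower in each of the 4 5xFAD-Dp16 libraries than in each of the 4 5xFAD libraries, while Cd68 and Apoe overlap.

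As a list, 20 of the 32 tested plaque-associated genes were below 0, with a median of -0.31. At an unadjusted p under 0.05, 13 were lower and 2 higher, where 12% and 11.8% of all tested genes were. Without overlap, 14 were lower and 1 higher, against 5.87% and 5.59% of all tested genes. DESeq2 called 10 lower and 1 higher of the 25 it gave an adjusted p, against 2.7% and 3.79% of all. General myeloid genes had a median of -0.28 over 31 members, of which 6 were lower at an unadjusted p under 0.05 and 8 lower without overlap, beside the same 12% and 5.87%. Cyba, a subunit of the phagocyte oxidase, stood at 17.4 ± 3.36 against 35.4 ± 5.16 CPM (adjusted p = 0.0811), and Cd86, a costimulatory receptor, at 7.08 ± 0.8 against 12.3 ± 1.02 CPM (adjusted p = 0.155). Genes of resting microglia were split: the list of 22 had a median of 0.08 with 14 above 0, or -0.10 without 5xFAD replicate 3, while 4 members were lower without overlap and 1 higher, beside 5.87% and 5.59% of all tested genes. Gpr34, a lysophospholipid receptor, stood at 25.6 ± 5.94 against 60.1 ± 12.8 CPM, and P2ry12, the ADP receptor of microglial processes, at 66.5 ± 4.88 against 97.3 ± 9.75 (adjusted p = 0.155 for each). In the lysosome list, the cathepsins Ctsh and Ctso had changes of -0.75 and -0.58 (adjusted p = 0.155 for each). The list median over 39 members was 0.02, or -0.06 without 5xFAD replicate 3, with 20 above 0 and 19 below. Without overlap, 10 of these members were lower and 1 higher, against 5.87% and 5.59% of all tested genes. DESeq2 called 7 lower and 0 higher of the 38 it gave an adjusted p, against 2.7% and 3.79% of all. The complement gene C1qb stood at 106 ± 9.40 against 158 ± 31.9 CPM (adjusted p = 0.155). Of the 16 tested complement genes, 8 were above 0 and 8 below, with a median of -0.006. Without overlap, 1 of them was higher and 1 lower, against 5.59% and 5.87% of all tested genes.

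In bulk cortex, fewer microglia and less RNA per microglial cell cannot be told apart. The summed CPM of the 31 general myeloid markers, none of them at 0 reads, ranged from 594 to 633 in 5xFAD-Dp16 and 658 to 987 in 5xFAD. It was 461 to 569 in wild-type and 537.8 to 593.7 in Dp16. For the 22 markers of resting microglia the sum ranged from 3393 to 3806 in 5xFAD-Dp16 and 3930 to 4468 in 5xFAD. That sum was 3359 to 4101 in wild-type and 3740 to 4252 in Dp16. Among 5xFAD mice the females were higher for several of these genes, and the model takes the sex difference to be the same in all genotypes. In a fit to the males of all genotypes, the changes were -0.91 for Fcgr3, -1.11 for Tyrobp, -0.76 for Trem2 and -1.25 for Ccl6, with adjusted p of 0.00819, 0.00819, 0.00886 and 0.0083. That fit called 2106 genes higher (12%) and 1850 lower (10.5%) of 17567, and its 2 5xFAD libraries are replicates 3 and 4. With the length trend also removed in males, Fcgr3 gave -0.51 (adjusted p = 0.0167) and Ccl6 -0.87 (adjusted p = 0.0203), while Tyrobp at -0.42 (adjusted p = 0.0582) and Trem2 at -0.29 (adjusted p = 0.149) did not pass, in a fit that called 8.74% of genes higher and 9.22% lower. With the trend removed in the 16 libraries, Fcgr3 gave -0.81, Tyrobp -0.79, Trem2 -0.63, Cyba -0.58, Cst7 -0.73 and C1qb -0.16. The list medians of plaque-associated and general myeloid genes were -0.18 and -0.17 with the length trend removed, -0.20 and -0.01 in males, and -0.06 and 0.02 in males with that removal, where the sign of the second turns. They were -0.41 and -0.36 without 5xFAD replicate 3, and -0.56 and -0.42 without 5xFAD replicate 4.

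**Figure D5:**
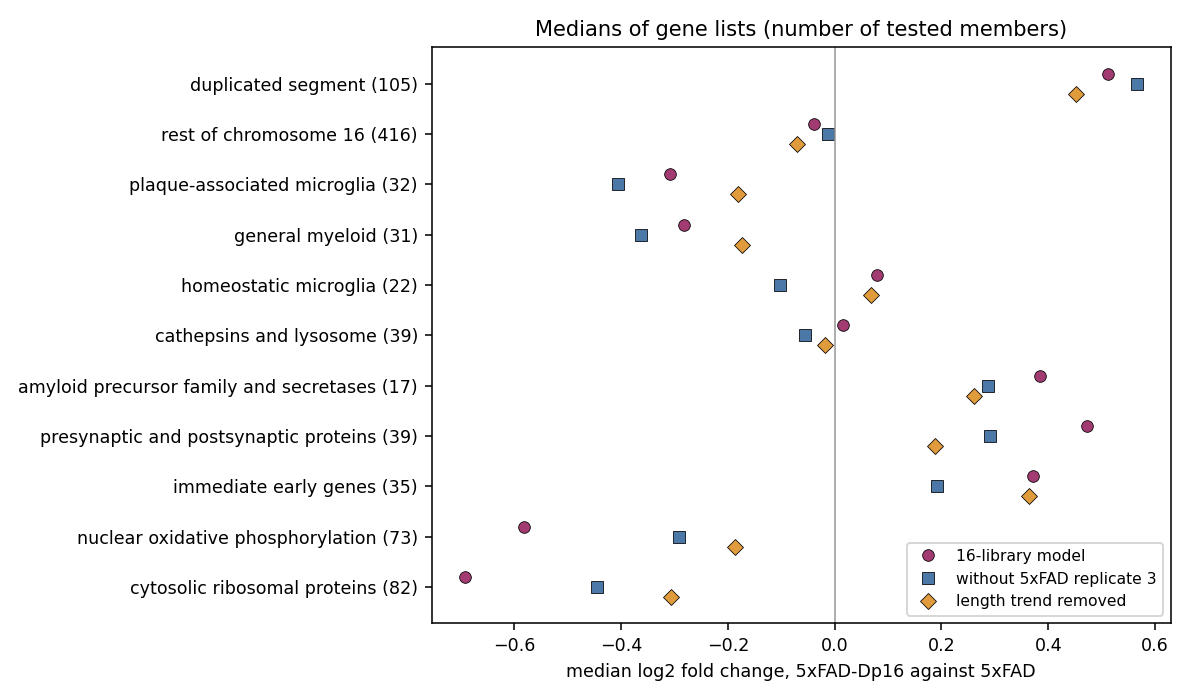
Median log2 fold change of 11 gene lists (x axis; the number of tested members stands beside each name) in the 16-library model, without 5xFAD replicate 3 and with the length trend removed. The segment median stays between 0.45 and 0.57, both myeloid lists stay below 0, and the ribosomal list moves from -0.69 to -0.31.

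Neuronal and housekeeping lists differed with gene length and with 5xFAD replicate 3. Of 39 presynaptic and postsynaptic genes, with a median length of 5786 bases, 37 were above 0 with a median of 0.47, which was 0.29 without replicate 3 and 0.19 with the length trend removed. The vesicle protein Sv2a stood at 226, 148, 167 and 140 against 124, 123, 49.0 and 97.6 CPM, with 5xFAD replicate 3 the lowest (change 0.93, SE 0.31, adjusted p = 0.155). The fusion regulator Cplx1 stood at 461 ± 63.3 against 318 ± 92.8 CPM (adjusted p = 0.155). All 82 tested cytosolic ribosomal protein genes, with a median length of 976 bases, were below 0, with a median of -0.69, or -0.45 without replicate 3 and -0.31 with the length trend removed. At an unadjusted p under 0.05, 78 were lower (30 without replicate 3), against 12% of all tested genes (2.76% without replicate 3). Without overlap, 67 were lower, against 5.87% of all tested genes. DESeq2 called 45 lower of the 81 it gave an adjusted p, against 2.7% of all. With all 8 libraries, each of these was a larger share than in the segment. Without replicate 3, 43 of the 105 segment members were higher at an unadjusted p under 0.05, against 3.87% of all tested genes. In that setting the segment had the larger share, as 30 of the 82 ribosomal genes were lower. Rps19 stood at 239, 291, 294 and 293 against 347, 388, 709 and 483 CPM, where 5xFAD replicate 3 was the highest. Rpl31 likewise reached 1210 CPM in that library, against 628 to 888 in the other 5xFAD libraries. Such genes have many near-identical processed copies, so their counts are uncertain. Nuclear genes of oxidative phosphorylation had 69 of 73 members below 0 and a median of -0.58, or -0.29 and -0.19 under the same pair of settings, with Ndufb9 of complex I at 459 ± 81.6 against 750 ± 263 CPM and the ATP synthase subunit Atp5mpl at 116 ± 16.7 against 200.3 ± 81.3.

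Immediate early genes, which follow neuronal activity, had 26 of 35 members above 0 and a median of 0.37, or 0.19 without 5xFAD replicate 3. Fos, a subunit of AP-1, stood at 44.8, 25.5, 31.6 and 29.0 against 20.8, 20.6, 16.6 and 18.0 CPM, without overlap (change 0.72, SE 0.25, adjusted p = 0.156). Nr4a1, a nuclear receptor, stood at 139, 64.9, 87.5 and 91.7 against 73.3, 62.3, 45.3 and 38.5 CPM, Trib1, a pseudokinase, at 21.8 ± 5.02 against 12.98 ± 2.83, and Arc, a synaptic capsid-like protein, at 171 ± 65.9 against 87.8 ± 43.7. Replicate 1 of 5xFAD-Dp16 had the highest value of each. Beside these neuronal lists, the summed CPM of 24 markers of excitatory neurons and cortical layers ranged from 3574 to 5073 in 5xFAD-Dp16 and 2388 to 3460 in 5xFAD, with none at 0 reads. It ranged from 2627 to 4849 in wild-type and 2864 to 4839 in Dp16. The sum of 27 inhibitory neuron markers leaned the other way with overlap, at 2767 to 3027 in 5xFAD-Dp16 and 2922 to 3371 in 5xFAD. For 16 markers of hippocampus and thalamus the sum ranged from 144 to 187 in 5xFAD-Dp16 and 93.9 to 132 in 5xFAD. It was 79.3 to 157 in wild-type and 124 to 178 in Dp16. Of the tested members of that list, 14 of 15 were above 0. The part of these markers in the results was not tested. Choroid plexus markers summed to 922 CPM in 5xFAD-Dp16 replicate 2 and to 177 to 214 in the 5xFAD libraries, and the plasma transthyretin gene Ttr stood at 7.41, 677, 17.9 and 3.14 against 9.16, 4.63, 6.99 and 14.5 CPM.

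Whether the duplication acts differently with the transgenes than without them was tested as an interaction, the change described here minus that of Dp16 over wild-type. edgeR called 0 genes (0%) at an adjusted p under 0.05 and 1591 (9.35%) at an unadjusted p under 0.05; DESeq2 called 21 (0.143% of 14706). In Dp16 against wild-type, edgeR called 3 genes, or 0.0176%. Of the 105 segment members, 18 had an unadjusted interaction p under 0.05, 6 of them with a larger change in the transgene carriers, and 81 were above 0 in both comparisons. App gave 1.07 against 0.48 and Synj1 1.3 against 0.47 (edgeR interaction adjusted p = 0.522 for each). Morc3 gave 0.25 against 0.81 and Samsn1 -0.56 against 0.53 (edgeR interaction adjusted p = 0.522 for each). Among the DESeq2 calls, all named after their values were seen, were Clec7a (interaction -2.65, DESeq2 adjusted p = 4.09e-05), Cd86 (-1.72, DESeq2 adjusted p = 3.69e-05), Fcgr3 (-1.19, DESeq2 adjusted p = 0.0171) and Lyz2 (-1.52, DESeq2 adjusted p = 0.0228), which were lower with the duplication among transgene carriers relative to non-carriers. Fos (1.45, DESeq2 adjusted p = 0.0339) and Nr4a1 (1.63, DESeq2 adjusted p = 0.0344) went the other way: without the transgenes Fos had 17.4 ± 4.38 CPM with the duplication and 28.6 ± 6.93 without it, the reverse of its order in the transgene carriers. Their smallest edgeR adjusted p was 0.203, for Cd86. The interactions of Cd86 and Clec7a also hold a rise in Dp16 over wild-type. Among transgene carriers Cd86 changed by -0.84, and the change of Clec7a given above was likewise smaller in size than its interaction. Clec7a had very low counts in wild-type, so that part is imprecise. Fcgr3 changed by -1.08 among transgene carriers, close to its interaction.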

How the data were processed

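Raw read counts per gene were deposited by the authors as whole numbers, without normalization, for 55385 genes. A second deposited table holds RPKM values, which served to check the counts (100.0% of non-zero values matched count, length and library total within 0.1%) and to give gene lengths. GRCm38, bcl2fastq, HTSeq 0.6.1, SAMtools 1.5, HISAT2 2.1.0 and FastQC 0.11.5 are named, with no role, per the submitters' processing notes; per the labels' protocols, libraries were strand-specific. The strand setting of the counting is not given in the sources used here. Coordinates came from Gencode M21 by gene identifier (55144 matched, 241 not). The segment was taken as chromosome 16, 75540514 to 97962622.

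edgeR 4.0.16 in R 4.3.3 kept 17019 genes (filterByExpr, TMM) and fitted genotype and sex to the 16 libraries with robust quasi-likelihood dispersions; the model has 11 residual degrees of freedom. P-values were two-sided and Benjamini-Hochberg adjusted over all tested genes, and measure the spread between samples. CPM use TMM-scaled library sizes. In the fit with the length trend removed, a lowess curve of each library's deviation on gene length was added to the offsets. DESeq2 1.42.0 and the settings named in the closing section were alternatives. Library measures were compared by exact permutation over 70 assignments, whose smallest p is 0.0286. Genes were named as label checks, by segment function, or as the 4 smallest adjusted p of a list; others are marked. Members, lists and rules were chosen with earlier results of these data known. Counting error shrinks with reads, so low-count genes are the least precise.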

Additional observations from a re-analysis of the deposited data

Results flagged for a closer look

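Within a group of 4 libraries, a value was singled out where its gap to the nearest library exceeded Dixon's critical share of the group's range; chance does this in about 1 in 20 groups, and 160 were examined. 5xFAD replicate 3 had a median correlation of 0.938 with the other libraries, the lowest App (604 CPM) and the highest Manf, an endoplasmic reticulum stress factor (150.2 CPM). In 5xFAD, Tyrobp was lowest in replicate 4 (77.3 CPM), the cathepsin Ctso lowest in replicate 1 (73.4 CPM) and Mx2 highest in replicate 1 (1.65 CPM). In 5xFAD-Dp16, replicate 1 had the highest Dscam (37.4 CPM), Olig2 (45.6 CPM) and Ncstn (59.1 CPM) and the lowest Rps19 (238 CPM). Replicate 2 of 5xFAD-Dp16 had the highest Trem2 (43.0 CPM) and Ttr (677 CPM), and replicate 4 the highest Tmem50b (167 CPM).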

How the results depend on the processing

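The counts of called genes moved with the model, while the segment median stayed above 0 in all 17 settings. Higher and lower calls were 0 and 0 in the 16-library model and with median-ratio size factors, 8 libraries without a sex term, and the replicate block; the segment median under the replicate block was 0.52. They were 432 and 308 with DESeq2, 1352 and 863 with no filter on low counts, 2511 and 2509 with the 8 libraries and a sex term, 2106 and 1850 in males, 4 and 0 with the length trend removed, and 1535 and 1620 in males with that removal, a setting chosen after seeing the data. Segment genes called higher were 28, 31, 37, 34, 4 and 31 in the same order. Leaving out single libraries gave 0 to 1 higher and 0 to 2 lower genes, the 1 and the 2 without 5xFAD replicate 4, and 0 segment calls. The segment median was 0.51, or 0.44 with the 8 libraries and a sex term, 0.45 with the length trend removed and 0.40 in males with that removal; it ran from 0.50 to 0.57 when single libraries were left out. Interaction calls were 0, or 21 with DESeq2 and 346 with no filter. Dp16 against wild-type had 3 calls, or 43 with no filter, 16 with the length trend removed, and 0 in males, in males with that removal and under the replicate block. Same-numbered libraries of the 2 genotypes had correlations of deviations of 0.316, -0.092, -0.07 and -0.021, so the numbers were not taken as pairs. Fits that rest on the male 5xFAD libraries use 5xFAD replicates 3 and 4. The causes of these differences were not tested.

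Of 76 named genes, 71 kept their sign in all settings. Apoe, at -0.03, became 0.09 with the 8 libraries and a sex term, 0.11 in males, 0.12 with the length trend removed, 0.33 in males with that removal, and -0.176 to 0.009 without single libraries. Cd68, at -0.30, became 0.33, 0.35 and 0.78 with the 8 libraries and a sex term, in males, and in males with the length trend removed. Hmgn1, at 0.03, became -0.065 with the 8 libraries and a sex term, -0.039 in males, and -0.045 to 0.148 without single libraries. C1qb, at -0.49, became 0.17 in males with the length trend removed, and Ttr, at 3.42, was -0.799 to 3.835 without single libraries, the lowest without 5xFAD-Dp16 replicate 2, and 1.136 to 4.337 in the other settings.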

Other observations

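Further lists were measured in the same comparison. Of 19 endothelial genes 17 were above 0, with a median of 0.46: the tight-junction gene Cldn5 stood at 45.8 ± 6.90 CPM in 5xFAD-Dp16 and 34.3 ± 1.92 in 5xFAD without overlap, while Itm2a, a membrane protein of endothelium, stood at 104 ± 13.4 against 158 ± 34.3 (adjusted p = 0.155 to 0.161 by edgeR). Myrf and Sox10, factors of oligodendrocytes, stood at 24.5 ± 7.16 against 12.9 ± 5.48 and 26.8 ± 5.92 against 15.9 ± 6.22 CPM, both called higher by DESeq2. These were its only calls among 22 myelinating oligodendrocyte genes, where it called 3.79% of all genes higher. The list had a median of 0.125, with 14 members above 0 and 8 below, and its member Opalin gave -0.61 (adjusted p = 0.169). Without overlap, 0 members were higher and 2 lower, against 5.59% and 5.87% of all tested genes. The interneuron gene Pvalb stood at 132 ± 23 against 256 ± 98.5 CPM (change -1.02, adjusted p = 0.155), with 390 CPM in 5xFAD replicate 3. Its list of 27 inhibitory neuron genes had 17 members above 0 and a median of 0.15. Without overlap, 4 members were higher and 1 lower, against 5.59% and 5.87% of all tested genes. Nos1 and Slc32a1 gave 1.54 and 0.57, and Tac1 gave -0.82 (adjusted p = 0.155 to 0.157 by edgeR). Prox1, a factor of the dentate gyrus, stood at 6.87 ± 1.87 against 3.55 ± 1.67 CPM. The 38 tested human chromosome 21 orthologs outside the segment had a median of 0.26, or 0.11 without 5xFAD replicate 3.

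Several genes were singled out after their values were seen. Eif2s3y, a Y-linked translation factor, stood at 14.8, 21.6, 19.5 and 16.1 CPM in 5xFAD-Dp16 and at 46.5 and 43.2 CPM in the 2 males of 5xFAD (adjusted p = 0.0795 with the sex term), while Ddx3y stood at 47.9 to 55.3 and at 49.0 and 58.9. Rnase4, a secreted ribonuclease, stood at 27.0, 28.6, 25.8 and 25.4 against 51.9, 58.9, 50.6 and 39.5 CPM (adjusted p = 0.0811), and C2cd2 of the segment at 10.8 ± 1.08 against 4.55 ± 1.98 (adjusted p = 0.0999).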
